A study of Mus musculus with 6 samples.

Results

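Genes with names of the form Gm followed by a number were examined in RNA sequencing of mouse bone marrow-derived macrophages. Such a name is a placeholder that the mouse nomenclature gives to a gene model with no established function. Of the 23034 rows of the deposited count table, 1119 carried such a name. Of these, 740 had no count in any library, 253 had at least 1 count but fewer than 200, and 126 reached the required sum of 200 counts over the 6 libraries. These 126 genes were described. The edgeR low-count filter kept 123 of them, and Gm20431, Gm49380 and Gm50461 were not tested. The genes were selected on their summed counts. Those named as rising or falling most were chosen by the change between the groups itself, among genes whose groups did not overlap. Their changes and the separation of their groups are therefore given as descriptions without a p-value. Where a call or a missed threshold is mentioned for such a gene, it gives only its side of the whole-table threshold. It is no support for the change.

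All cells were wild type. Macrophages were derived from marrow in M-CSF (10 ng/ml), exposed to IL-4 (20 ng/ml) for 24 hours (an M2-type polarisation), reseeded for 24 hours, and then given PBS (control, 3 libraries) or SA@BATMAN5 (3 libraries) for 24 hours. The series title places SA@BATMAN5 with tuftsin clusters directed at Fc gamma receptors. The labels do not say whether the 3 replicates came from separate animals or cultures, so a p-value here measures library-to-library spread, which may be technical.

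Genes under provisional names are of several kinds. Some belong to families that expanded in rodents, such as the immunity-related GTPases (IRG, interferon-induced proteins that act on the vacuoles of intracellular parasites). Others are retrocopies, made when an mRNA is reverse-transcribed into the genome, or KRAB-type zinc finger genes, which lie in clusters of related repressors of transposable elements. A further kind is the readthrough gene, annotated when transcripts join the exons of adjacent genes, so that most of its sequence also belongs to those genes.

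Control libraries held 38740103 to 47018154 counts and SA@BATMAN5 libraries 29739263 to 37212125, and the 126 genes took 0.137% to 0.146% and 0.162% to 0.165% of them. CPM below is the usual per-library scaling of a count by the TMM-adjusted library total, and 3 counts corresponded to 0.0619 to 0.103 CPM. All 10 macrophage markers were detected, 7 called higher and 3 lower, with a summed level of 16636 to 16853 CPM in control and 23008 to 23172 CPM in SA@BATMAN5 libraries. The summed level of 8 neutrophil markers was 7.76 to 8.58 against 60.9 to 71.5 CPM, with Ly6g, Mpo and Retnlg at 0 counts. Of these 8, 3 were called higher, 1 was not called and 4 were not tested. The summed level of 8 stromal markers was 769 to 955 against 1082 to 1246 CPM, with Lum at 0. Of the stromal markers 5 were called higher and 1 lower. The sum of 6 T and NK lymphocyte markers was 0.557 to 1.00 against 2.34 to 3.97 CPM, with Cd3e, Cd3d and Ncr1 at 0. Of these 6, 1 was called higher and 5 were not tested. Sums over 5 mast cell and basophil markers were 0.149 to 0.268 against 0.445 to 1.03 CPM, and over 4 B lymphocyte markers 1.71 to 2.40 against 2.56 to 4.61 CPM. In each of these lists 1 marker was called higher. Dendritic cell markers summed to 4.65 to 5.04 against 3.59 to 4.44 CPM, with Flt3 and Siglech at 0, and erythroid markers to at most 0.167 CPM. The part of these shifts in the values below was not tested, and in bulk RNA fewer cells of a type cannot be told apart from less RNA per cell.

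Of the 123 genes tested, 30 rose and 24 fell with SA@BATMAN5, at an adjusted p under 0.05 (edgeR quasi-likelihood test, Benjamini-Hochberg over 13474 genes), and 69 passed in neither direction. Over all genes tested 58.2% were called, 29.5% higher and 28.7% lower, against 43.9% of the Gm-named genes. Among all rows at 200 counts or more, the sum required of the Gm-named genes, 61.3% of those tested were called. At a change of at least 2-fold, 19 of the 123 were higher and 7 lower. Of the 13474 genes tested, 1236 (9.17%) and 991 (7.35%) were. In 33 genes every SA@BATMAN5 library lay above every control library and in 26 every one lay below. These were 48.0% of the Gm-named genes tested, against 64.1% of all genes tested and 66.7% of tested rows at 200 counts or more. The groups overlapped in 6 of the 54 called genes. The median log2 fold change was -0.04, beside -0.00 for all genes tested. Rows with names ending in Rik, another provisional kind, were called in 47.0% of 132 cases, and StringTie loci in 52.4% of 429, both at 200 counts or more. No cause of these differences in share was tested.

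The 126 genes were sorted by the GENCODE vM21 and RefSeq annotations of GRCm38, an older build than the authors', used here for names, types and overlaps. There were 41 readthrough genes, with a transcript tagged as readthrough or at least 50% of exonic bases shared with another gene on the same strand. Another 17 were copies, which RefSeq calls pseudogenes and whose transcripts align to a parent gene over at least 70% of their length at 95% identity or more. For 32 the closest other transcript came from a numbered Zfp gene, and they are called zinc finger-like. A further 28 fitted none of these descriptions, and 8 had no entry in GENCODE vM21. The classes were drawn up after the values had been seen. Among the 28 remaining genes 16 were higher and 5 lower (75% called, against 58.2% of all genes tested). The readthrough class gave 8 higher and 7 lower of 39 tested (38.5% called). The copies gave 1 and 6 of 17 (41.2%), and the zinc finger-like genes 2 and 6 of 32 (25%). Of the 7 tested genes without a GENCODE entry, 3 were higher, among them Gm50387 at 37.9 ± 2.30 and 50.4 ± 4.32 CPM (mean ± SD, n = 3, control and SA@BATMAN5). Gm50253 of this class had a log2 fold change of -0.67 ± 0.33 and was not called.

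**Figure D1:**
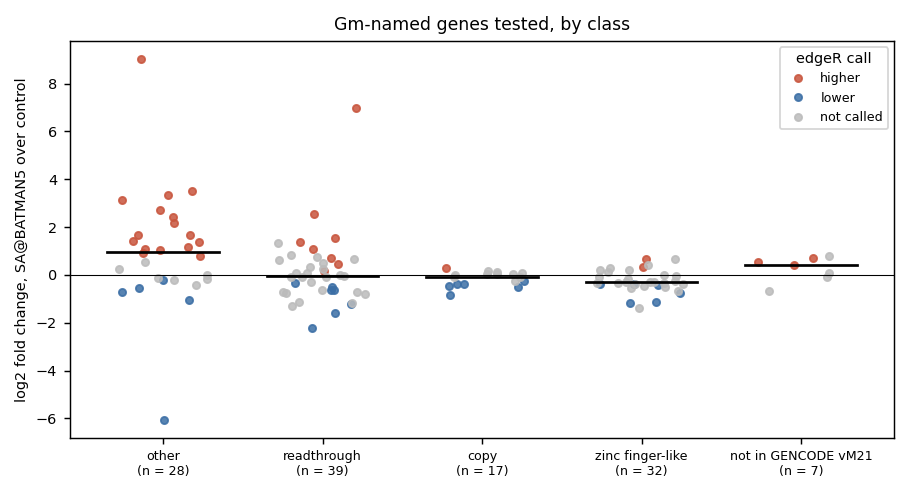
Log2 fold change (SA@BATMAN5 over control) of the 123 Gm-named genes tested, by class; points are genes coloured by the edgeR call, and black lines are class medians, with a random horizontal offset to separate points. The medians are 0.97 for the 28 remaining genes, -0.04 for readthrough genes, -0.07 for copies, -0.32 for zinc finger-like genes and 0.41 for those without a GENCODE entry.

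The largest rise was that of Gm3776, a glutathione S-transferase-like gene next to Gsta1, which encodes an enzyme that conjugates glutathione to electrophiles. Gm3776 had 0, 0 and 2 counts in the control libraries and 239, 319 and 388 with SA@BATMAN5. The ratio of summed counts, scaled by TMM-adjusted library totals, was 632, with an exact 95% counting interval of 174 to 5223, which covers counting error alone. Both control counts lay in a single library. Gsta1 itself had 0, 0 and 2 control counts and 273, 269 and 314 with SA@BATMAN5, so its counts were of like size to those of its neighbour in each library. The coding sequences of the pair differ at 2 of 669 bases (99.7% identity). The first 240 coding bases are shown here because reads from so similar a pair can be divided between them by the counting. The sequences come from the GENCODE vM21 transcripts, with the differing base in capitals.
Gm3776: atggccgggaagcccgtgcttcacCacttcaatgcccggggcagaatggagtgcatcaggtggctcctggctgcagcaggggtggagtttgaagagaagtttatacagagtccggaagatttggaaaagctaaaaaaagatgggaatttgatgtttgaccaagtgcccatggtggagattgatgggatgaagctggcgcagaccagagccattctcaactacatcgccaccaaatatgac
Gsta1: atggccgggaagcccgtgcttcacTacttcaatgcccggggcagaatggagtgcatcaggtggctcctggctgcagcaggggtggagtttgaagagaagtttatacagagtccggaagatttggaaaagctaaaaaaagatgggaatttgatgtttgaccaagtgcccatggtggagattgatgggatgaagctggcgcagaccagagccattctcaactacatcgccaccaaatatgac
The RefSeq promoter windows of the pair are alike too, and are shown with their 3 differences in 287 compared bases (99.0% identity) in capitals. They lie on GRCm38.p6 at chr9:78256892-78257178 and chr9:78230419-78230705, plus strand.
Gm3776: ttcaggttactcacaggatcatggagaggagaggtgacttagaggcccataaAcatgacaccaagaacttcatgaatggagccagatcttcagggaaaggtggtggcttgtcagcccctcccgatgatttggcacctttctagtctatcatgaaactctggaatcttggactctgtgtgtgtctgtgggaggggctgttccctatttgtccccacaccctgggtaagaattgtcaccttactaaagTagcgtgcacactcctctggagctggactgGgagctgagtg
Gsta1: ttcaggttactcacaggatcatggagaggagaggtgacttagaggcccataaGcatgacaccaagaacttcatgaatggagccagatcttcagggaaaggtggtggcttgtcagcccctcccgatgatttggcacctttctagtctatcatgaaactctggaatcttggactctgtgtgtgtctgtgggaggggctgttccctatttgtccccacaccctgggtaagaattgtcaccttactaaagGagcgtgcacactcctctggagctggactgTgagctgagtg
With so little sequence to separate them, the levels of the 2 genes are uncertain one by one, while both rows rose in every library.

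Interferon-induced GTPase genes formed the next group. Gm43302 is annotated as a readthrough of Gbp10 and Gbp6, guanylate-binding proteins that attack the membranes around intracellular pathogens. It had 16, 7 and 11 control counts and 1285, 863 and 1144 with SA@BATMAN5, or 0.248 ± 0.0850 and 32.3 ± 3.07 CPM, a log2 fold change of 6.99 ± 0.24 (SE). The groups lay far apart. Gbp6 moved with it, with 26, 13 and 22 control counts and 4342, 3288 and 4321 with SA@BATMAN5, and Gbp10 had no control count and 385, 279 and 440. Gm43302 held 20.2% of the counts of the 3 rows together.

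Of 6 IRG genes listed under Gm names, 4 were in the table and all 4 were higher with SA@BATMAN5. Gm4951, close kin of Iigp1 (87.6% identity over the aligned stretch), had 66, 59 and 73 control counts and 538, 388 and 580 treated counts. Its level went from 1.46 ± 0.0506 to 14.8 ± 1.34 CPM, a log2 fold change of 3.33 ± 0.13, with a wide gap between the groups. Iigp1, an IRG effector GTPase and its neighbour, went from 0.219 ± 0.182 to 24.0 ± 3.41 CPM. Gm5431, next to Irgm1, began higher, with 905, 712 and 888 control counts, and reached 2999, 2397 and 2945. In CPM this was 18.5 ± 0.753 and 82.4 ± 1.03 (log2 fold change 2.15 ± 0.05), and each treated library was far above each control. Irgm1, a regulatory IRG protein, went from 36.3 ± 0.779 to 300 ± 16.4 CPM. Gm12185, of the same neighbourhood, had 90, 45 and 101 control counts against 167, 138 and 151, a log2 fold change of 1.39 ± 0.22, again without overlap. Gm4841 had 3 counts in the control group and 57 with SA@BATMAN5 and was below the sum of 200. The 6 named IRG relatives in the table were all higher, with a median log2 fold change of 4.31 beside 2.74 for the 4 Gm-named genes. No Gm-named gene of the list of very large interferon-inducible GTPases was in the table, while Gvin1 and Gvin2 of that family both rose, with mean control levels of 76.7 and 76.8 CPM against treated levels of 353 and 358 CPM.

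Among Gm genes listed with Sp100, a component of nuclear bodies that interferons induce, Gm7592 and Gm7609 rose. GENCODE vM21 types both as transcribed unprocessed pseudogenes, and RefSeq types both as protein-coding. Gm7592, 98.3% identical to Sp100 over the aligned 56.8% of its length, had 19, 27 and 20 control counts and 100, 72 and 100 treated counts (log2 fold change 2.43 ± 0.28). Reads of Gm7592 and Sp100 can be divided between them by the counting, which was not tested. Gm7609, a neighbour of Sp110, had 9, 9 and 10 control counts and 63, 49 and 75 treated counts (3.13 ± 0.34). In both genes the lowest treated library was well above the highest control. All 3 tested genes of this list were higher, Gm15433 being the third, and so were all 9 named IFIT and Sp100 relatives, among them Sp100 with a log2 fold change of 2.15 ± 0.04.

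The MHC class I region held 2 of the named rises. Gm7030, a class I-like gene, had 52, 24 and 59 control counts and 125, 46 and 104 treated counts, a log2 fold change of 1.43 ± 0.33. Gm19684, annotated on the opposite strand of Gm7030, had 13, 14 and 11 control counts and 94, 103 and 129 treated counts (3.50 ± 0.30). The groups of both genes separated in CPM, although a treated library of Gm7030 had fewer raw counts than 2 control libraries. Since no strand setting is given in the sources used here, it is not known whether reads of the 2 genes were told apart. All 11 named class I genes and relatives of the list were higher, such as H2-T22 with a log2 fold change of 2.68 ± 0.03 and B2m, the light chain of class I molecules, with 1.43 ± 0.03.

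Gm8369 lies among the Ms4a genes, which encode membrane proteins with 4 passes, and had 9, 7 and 20 control counts against 40, 33 and 108. Its log2 fold change was 2.72 ± 0.50, and 2.08 without the third SA@BATMAN5 library, where the gene was highest. Its neighbours Ms4a6c, Ms4a6b, Ms4a4b and Ms4a4d rose as well, by 3.03, 3.87, 2.77 and 2.52 on the log2 scale. Gm6377, on the X chromosome and sharing 8.19% of its exonic bases with Sh3bgrl, had 119, 101 and 123 control counts and 319, 250 and 241 treated counts (1.66 ± 0.15). Sh3bgrl, encoding a small thioredoxin-like protein, rose less (0.34 ± 0.04). Gm49392, a readthrough of Ctla2b, which resembles the propeptide of cysteine proteases, had 19, 30 and 44 control counts and 69, 74 and 56 treated counts (1.53 ± 0.33), and Ctla2b had a log2 fold change of 1.63 ± 0.08.

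Gm21188 was the most highly counted gene among the named rises and has no assigned role. It had 2907, 2325 and 2600 control counts and 6579, 5333 and 6573 treated counts, or 58.0 ± 4.19 and 183 ± 1.09 CPM, a log2 fold change of 1.66 ± 0.05. The closest named coding genes on chromosome 13, Tcstv1, B020031M17Rik and AF067061, were at 0 to 0.03 CPM on average in both groups. Gm36079, which lies between the same flanking genes, went from 4.80 ± 0.458 to 9.11 ± 0.612 CPM. BC147527, the fourth flanking gene, was higher too, with 2, 1 and 3 control counts and 48, 27 and 58 treated counts (log2 fold change 4.78 ± 0.65).

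**Figure D2:**
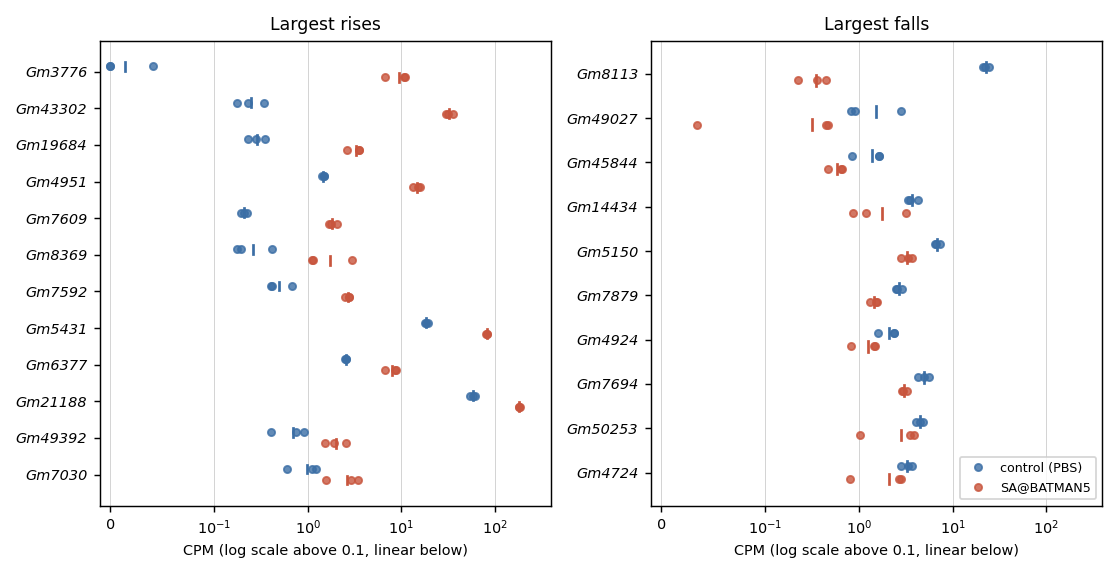
CPM in each library (horizontal axis, logarithmic above 0.1 and linear below) for the 12 largest rises (left) and 10 largest falls (right) among Gm-named genes whose groups did not overlap; points are libraries, vertical ticks are means of 3 libraries. Gm21188 goes from 58.0 to 183 CPM and Gm8113 from 22.5 to 0.343 CPM.

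The largest fall was that of Gm8113, for which no function is annotated. It had 1139, 880 and 1031 control counts and 8, 13 and 13 treated counts, or 22.5 ± 1.57 and 0.343 ± 0.113 CPM, a log2 fold change of -6.05 ± 0.23. No treated library came near any control library. Its closest named neighbours on chromosome 14, Ear10 and Ear1, which encode ribonucleases of the eosinophil-associated family, had 16 and 8 counts in the control group and 1 and 0 with SA@BATMAN5. The fall of Gm8113 thus had no counterpart of like level among the adjacent named genes.

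Gm5150, related to the signal-regulatory proteins (SIRP, receptors of myeloid cells), had 341, 258 and 321 control counts and 134, 96 and 102 treated counts. Its level went from 6.79 ± 0.431 to 3.28 ± 0.455 CPM (log2 fold change -1.05 ± 0.14), with the groups well apart. The adjacent Sirpb1b and Sirpb1c were higher instead, with 0.94 ± 0.12 and 0.76 ± 0.09, as was Sirpb1a with 1.01 ± 0.19. All 10 tested named SIRP and PIR/LILR relatives were higher, from Sirpa at 0.17 ± 0.03, the inhibitory receptor for CD47, to Pirb at 1.31 ± 0.03. Gm5150 was the single gene tested of its Gm list, so this is a contrast between 1 gene and its relatives.

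Further named falls are given with their counts. Gm7694, annotated within Nos1ap (an adaptor of neuronal nitric oxide synthase), had 265, 196 and 207 control counts and 116, 84 and 106 treated counts (-0.71 ± 0.16), beside -0.84 ± 0.30 for Nos1ap. Gm14434, zinc finger-like, had 166, 134 and 207 against 31, 93 and 43 (-1.12 ± 0.35), and its fall missed the threshold without the third control (-1.01), the first SA@BATMAN5 (-0.79) or the third SA@BATMAN5 library (-0.91). Without the second SA@BATMAN5 library, where it was highest of the treated, it was -1.86. Gm4924, also zinc finger-like, had 110, 64 and 116 against 53, 24 and 53 (-0.74 ± 0.28) and missed the threshold without the first control (-0.67), the third control (-0.65) or the second SA@BATMAN5 library (-0.53). Gm45844, a readthrough row over Vmn2r29, had 77, 34 and 79 control counts against 23, 19 and 17 (-1.24 ± 0.35). Gm50253 and Gm4724 separated between the groups but were not called, with 37, 103 and 140 and with 29, 78 and 101 treated counts. In each of these 2 genes the first SA@BATMAN5 library was the lowest.

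Around the 28 remaining genes, named neighbours often moved alike. For the 21 whose nearest named coding gene was tested, Pearson's r between the log2 fold changes of gene and neighbour was 0.93 and Spearman's rho 0.76, and 17 pairs had the same sign. These are descriptions across genes in the same 6 libraries, and pairs such as Gm3776 and Gsta1 weigh heavily in r. Some neighbours also overlap their gene and share exonic bases with it, such as Sh3bgrl with Gm6377 and Nos1ap with Gm7694. For 31 zinc finger-like genes the same values were 0.18 and 0.11, and 21 pairs had the same sign.

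Of the 126 genes, 53 had a RefSeq promoter window of 250 bases before to 50 after the gene start on GRCm38.p6. A core of interferon response elements (GAAA, 2 bases of any kind, GAAA, on either strand) was found in 6 of the 53 (11.3%) and in 3.99% of 27025 genes. It was present in 2 of 14 higher genes, 1 of 11 lower genes and 3 of 28 that passed in neither direction. The kappaB motif was found in 1 of 53 (1.89%, against 7.81% of all genes). A core of antioxidant response elements (TGACNNNGC, either strand, a search added after the values were seen) was also found in 1 of 53, against 14.0%, and not in the windows of Gm3776 or Gsta1. The 2 higher genes and the lower gene with the interferon-type core differ in its 2 bases of any kind. Their windows are therefore shown 5′ to 3′ with the match in capitals. They are chr11:48927133-48927432 for Gm12185, chr17:36129376-36129675 for Gm7030 and chr3:16006283-16006582 for Gm5150, all on the minus strand.
Gm12185: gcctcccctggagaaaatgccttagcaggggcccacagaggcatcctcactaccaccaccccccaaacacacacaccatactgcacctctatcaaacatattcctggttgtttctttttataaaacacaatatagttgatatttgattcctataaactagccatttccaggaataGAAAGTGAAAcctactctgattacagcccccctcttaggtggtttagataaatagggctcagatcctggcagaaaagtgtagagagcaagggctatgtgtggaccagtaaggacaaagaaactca
Gm7030: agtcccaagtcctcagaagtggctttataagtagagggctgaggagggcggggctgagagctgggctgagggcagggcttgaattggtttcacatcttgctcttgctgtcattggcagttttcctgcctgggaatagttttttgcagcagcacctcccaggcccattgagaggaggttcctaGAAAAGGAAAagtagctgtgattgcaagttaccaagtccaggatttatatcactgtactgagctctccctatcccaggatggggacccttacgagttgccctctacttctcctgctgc
Gm5150: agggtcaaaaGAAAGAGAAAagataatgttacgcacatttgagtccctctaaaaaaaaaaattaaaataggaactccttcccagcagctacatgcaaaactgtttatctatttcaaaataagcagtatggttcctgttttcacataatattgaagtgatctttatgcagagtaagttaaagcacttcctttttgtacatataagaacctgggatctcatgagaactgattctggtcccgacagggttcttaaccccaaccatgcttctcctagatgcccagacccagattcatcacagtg
The match began 75, 68 and 240 bases before the annotated start, in that order. A match of letters is a description of the sequence and not a binding site.

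Readthrough genes were the least even class between replicates. The larger of the 2 within-group coefficients of variation (CV) had a median of 59.9% over the 41 genes, beside 6.0% for copies, 29.0% for zinc finger-like and 18.5% for the remaining genes. In 10 of the 126 genes (7.94%) a library with at most 3 counts stood beside one of the same group with at least 100, and 9 of those 10 were readthrough genes. Only 14 of all 12113 rows at 200 counts or more did so, the other 4 being Commd1b, Guca1a, Ramp2 and Ugt1a1. This criterion was chosen after the values were seen.

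Gm20716, annotated across Adnp (a chromatin factor) and Dpm1 (a subunit of dolichol-phosphate mannose synthase), shows the pattern at high counts. It had 3362, 2579 and 0 counts in the control libraries and 2217, 1846 and 3046 with SA@BATMAN5. Adnp had 637, 760 and 2540 control counts and 837, 584 and 39 treated counts, and Dpm1 had 193, 203 and 1781 against 147, 87 and 130. In the third control library, where Gm20716 was at 0, both overlapping genes were at their highest. In the third SA@BATMAN5 library Gm20716 was at its highest in CPM (84.1), and Adnp was at its lowest. The 3 rows summed to 89.1 ± 0.208 CPM in control and 88.2 ± 1.33 CPM in SA@BATMAN5 libraries, a log2 fold change of -0.01 ± 0.04. The row of Dpm1 alone had -2.11 ± 0.65, and Gm20716 alone 0.63 ± 0.71, or 0.03 without the third control library.

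The same sum was formed for all 41 readthrough genes with the genes whose exons they share, a counting unit added after the values were seen. The median of the larger CV was 5.47% for the sums against 59.9% for the genes alone, and it was smaller for the sum than for the gene alone in 39 of 41 cases. The Gm row made up a median of 17.1% of its sum, so in many sums the named genes set the value. In the 11 cases where it made up at least 50%, the median CV was 33.0% alone and 6.39% summed. Refitted over 13412 rows, of which 30.0% were called higher and 28.9% lower, 21 sums were higher, 12 lower and 8 in neither direction, against 8, 7 and 24 for the Gm rows alone with 2 not tested. The signs were opposite in 11 cases.

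**Figure D3:**
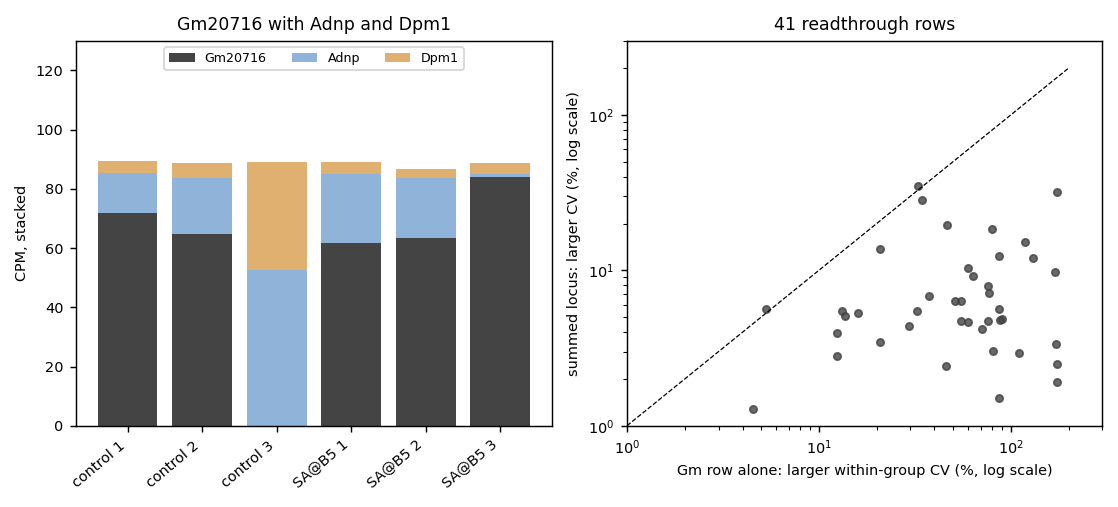
Left, stacked CPM of Gm20716, Adnp and Dpm1 in each library (SA@B5, SA@BATMAN5), with sums of 89.1 CPM on average in control and 88.2 in SA@BATMAN5 libraries. Right, the larger within-group CV of each of the 41 readthrough rows (horizontal) against that of its summed locus (vertical), both on logarithmic axes; 39 points lie below the dashed line of equality.

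The counting unit moved the values of some named genes, and 1 gene called alone had a sum called the other way. Gm49027, which shares exons with Diablo (a mitochondrial protein that promotes apoptosis), had 133, 33 and 44 control counts and 16, 1 and 17 treated counts, a log2 fold change of -2.21 ± 0.63. Without the first control library it was -1.41 and missed the threshold. Diablo had 1181, 1001 and 1157 against 1195, 849 and 1106, and the sum had 0.26 ± 0.07, a call in the other direction. Gm49027 made up 3.62% of that sum. Gm28043, across Cmtr1 (a cap methyltransferase) and Rnf8 (a ubiquitin ligase of DNA repair), had 157, 121 and 964 against 186, 178 and 179, a log2 fold change of -0.71 ± 0.53, where the sum had 0.93 ± 0.04. Gm28043 was not called alone and made up 5.99% of that sum. Gm38431, across Raver1, a cofactor in splicing, had 969, 221 and 2054 against 270, 246 and 253 and was called lower at -1.59 ± 0.47, and the sum had 0.06 ± 0.05. Raver1 was lowest, at 330 counts, in the third control library, where Gm38431 was highest. Gm42715, across Srcap, a chromatin remodeller, had 2514, 1730 and 1691 against 186, 985 and 1464 (-0.74 ± 0.42, adjusted p = 0.15 in edgeR), and the sum with Srcap and Tmem265 had 0.05 ± 0.05. Gm49673 was called higher with overlapping groups, at 51, 9 and 0 against 136, 0 and 140 counts. Its sum with Rnaset2a stayed on the same side, called higher at 1.77 ± 0.06.

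Gm49339 and Gm20605 were more even readthrough genes. Gm49339, which lies over Lilrb4a (an inhibitory receptor of myeloid cells), had the most counts of the 126 genes in each of the 6 libraries. It had 8156, 6968 and 9121 control counts and 10431, 8758 and 10247 treated counts, or 179 ± 8.08 and 291 ± 9.42 CPM. Its log2 fold change of 0.70 ± 0.04 (adjusted p = 1.5e-09, edgeR) stood beside 0.67 ± 0.03 for Lilrb4a, and the groups did not overlap in CPM. Gm20605, across Lrch4 and Sap25, had 68.9 ± 3.67 and 77.4 ± 0.630 CPM (0.17 ± 0.04, adjusted p = 0.0052 in edgeR), a call that was lost when libraries were scaled by totals (0.09) or upper quartiles (0.09). Gm21988, across Rnasek and 0610010K14Rik, had 4102, 3201 and 3251 against 3164, 2328 and 2834 counts (0.07 ± 0.08, adjusted p = 0.47, edgeR). Rnasek had 742, 999 and 1878 control counts and 1527, 1069 and 1663 treated counts, and was highest of the controls in the third library, where Gm21988 was lowest in CPM. The sum had 0.24 ± 0.04. On the per-length scale of the deposited FPKM, Gm11808 was highest of the 126 genes with a mean of 160 FPKM over the 6 libraries, followed by Gm49339 with 106 and Gm21188 with 47.6.

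Of the 17 copies, 3 differed from their parent gene by more than 0.5 in log2 fold change. Over the 17 pairs, which have 13 different parents, the median absolute difference in log2 fold change was 0.064, 14 pairs lay within 0.5, and Pearson's r was 0.57 and Spearman's rho 0.58. The median absolute log2 fold change of the copies themselves was 0.14, so 0.5 was a wide tolerance for most pairs. Among the 14 pairs, calls differed for Gm10131 (lower) and Erh (not called), and for Gm12166 (not called) and Sft2d1 (lower). The copies had a median of 6.76% of the parent's counts and a larger within-group CV of 6.0% at the median. Gm11808, the copy with the most counts, had 5136, 4527 and 5132 in the control libraries and 3041, 2329 and 3131 with SA@BATMAN5. Its mean CPM fell from 110 ± 3.73 to 83.7 ± 3.20 (adjusted p = 1.9e-06, edgeR), a log2 fold change of -0.39 ± 0.04, and every treated library lay below every control library. Gm9844, a copy of Tmsb10, which encodes an actin-binding thymosin, differs from its parent at 2 of 132 coding bases. The sequences, from the GENCODE vM21 transcripts, are shown with those bases in capitals because coding reads covering neither base match both genes.
Gm9844: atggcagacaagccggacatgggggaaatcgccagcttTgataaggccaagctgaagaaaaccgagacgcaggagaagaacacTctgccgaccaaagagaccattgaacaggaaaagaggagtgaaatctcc
Tmsb10: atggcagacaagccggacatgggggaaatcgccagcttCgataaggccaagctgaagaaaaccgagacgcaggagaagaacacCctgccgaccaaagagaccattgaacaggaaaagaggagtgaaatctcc
The log2 fold changes of this pair were -0.08 ± 0.09 and -0.05 ± 0.04, and neither passed the threshold. Gm6169 and its parent Plp2, a membrane proteolipid, had -0.49 ± 0.06 and -0.55 ± 0.03, and Gm2000 and Rpl35, of the large ribosomal subunit, had -0.46 ± 0.08 and -0.39 ± 0.03. Gm10053 and Cycs, which encodes cytochrome c, both rose, with 0.28 ± 0.07 and 0.37 ± 0.04. The 4 copies of Cdc5l, a splicing factor, had log2 fold changes between -0.07 and 0.04 beside 0.05 ± 0.05 for Cdc5l.

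The copies that differed by more than 0.5 were both copies of Gapdh, the glycolytic enzyme, and the copy of Ppih. Gm10358 had 1278, 1163 and 1381 control counts and 1082, 845 and 1042 treated counts (0.05 ± 0.06, adjusted p = 0.46, edgeR), and Gm3839 had a log2 fold change of 0.07 ± 0.09. Gapdh had 9669, 7466 and 11810 control counts and 6903, 1529 and 7706 treated counts (-0.47 ± 0.32), and thus stood low in the second SA@BATMAN5 library, where neither copy did. Gm10358 amounted to 55.3% of the Gapdh counts in that library and to 11.7% to 15.7% in the other 5. Gm7879 had 136, 102 and 120 against 56, 44 and 47 counts (-0.86 ± 0.21), and its parent Ppih, a cyclophilin of the spliceosome, had 147, 99 and 113 against 105, 63 and 72 (-0.17 ± 0.21). The copy was 92.5% to 106% of the parent's counts in control and 53.3% to 69.8% in SA@BATMAN5 libraries, so this ratio separated the groups.

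**Figure D4:**
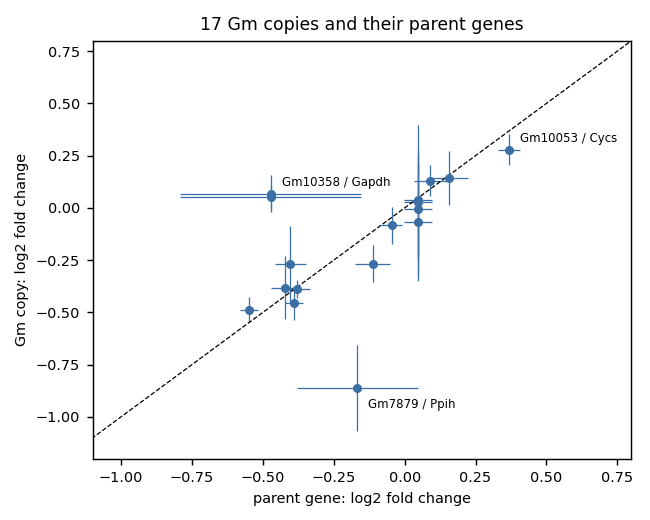
Log2 fold change of each of the 17 Gm copies (vertical) against that of its parent gene (horizontal), with standard errors from edgeR as bars and equality as the dashed line. Copies of the same parent share a horizontal position; the Gapdh copies lie above the line at 0.05 and 0.07, and Gm7879 below it at -0.86.

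Of the zinc finger-like genes 25% were called, against 58.2% of all genes tested. Their median level was 2.93 CPM and their median larger within-group CV 29.0%. Over all genes tested these values were 19.9 CPM and 7.85%. The part of level and spread in the lower share was not tested. Of the 32, 22 lie on chromosome 2, and of those 1 was higher, 4 were lower and 17 passed in neither direction. The median log2 fold change was -0.36 on chromosome 2 and -0.16 for the other 10. Gm14325, one of the 2 called higher in the class, had 598, 377 and 486 control counts and 663, 488 and 603 treated counts (10.7 ± 1.77 and 17.3 ± 0.985 CPM). Gm14410, called lower, had 638, 633 and 617 against 389, 304 and 404 counts (14.1 ± 1.61 and 10.8 ± 0.343 CPM). Both sets of CPM values separated between the groups. These genes align to their closest Zfp gene at 77.0% to 97.0% identity over 5.09% to 100% of their length (median 94.7%), and the reads they share were not measured.

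At the boundary of the required sum, Gm20683 with 201 counts and Gm45717 with 203 were just inside. Gm45717, over Ifitm2 and Ifitm5, had 31, 22 and 24 against 55, 24 and 47 counts (1.10 ± 0.34), and its call was lost without the first SA@BATMAN5 library (0.90). Gm20683 had 15, 26 and 97 against 5, 34 and 24 counts. Just outside were Gm614 with 18, 10 and 15 against 57, 40 and 41 counts, and Gm21970, whose 180 counts all came from the third control library. Among genes not tested, Gm20431 had 226 and Gm50461 had 441 counts, all in the third control library, and Gm49380 had 404 of its counts there. The Gm-named genes listed for stefin A and for ribosomal, satellite or mitochondrial-like reads had no row in the table.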

How the data were processed

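A deposited table of the whole series gives read counts for each gene, which are whole numbers, and FPKM (fragments per kilobase of transcript scaled by library total), both named so per the file headers. The build GRCm39 and the tools DESeq2 1.26.0, StringTie 2.1.2 and HISAT2 2.2.0 are named per the submitters' processing notes. Which tool counted reads, its annotation and its strand setting: not given in the sources used here. Reads of overlapping genes or close copies may be divided in unknown ways. Columns named N were read as control and S-5 as SA@BATMAN5, a reading of the names.

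Counts were filtered with filterByExpr (minimum count 10, minimum total 15), scaled by TMM and tested over 13474 genes with edgeR 4.0.16 in R 4.3.3 (glmQLFit, glmQLFTest, two-sided, group alone), with Benjamini-Hochberg adjustment at 0.05. The common biological coefficient of variation was 6.91%. Within groups, chi-square values per degree of freedom of 4.60 to 8.16 exceeded sampling noise, and replicates were counted separately. In simulated data with the depths and means of this comparison, 57 of 67 genes changed 1.5-fold (85.1%), 67 of 67 changed 2-fold and 66 of 66 changed 4-fold were called among 13452 tested. Every simulated gene had the common coefficient of variation of 6.91%, and only genes above a minimum mean count were changed. The larger within-group CV of the 126 Gm-named genes had a median of 26.1%, so these shares do not give the recovery among them.

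Transcripts of GENCODE vM21 were compared with blastn 2.17.0. Symbols of 81 of the 126 genes matched RefSeq (GRCm38.p6) and 118 matched GENCODE, and 6 matched neither. Genes and lists were chosen with earlier results of these data known. Named were the 12 largest rises and 10 largest falls with separated groups and a mean of at least 1 CPM in the higher group, the 6 most abundant genes, the 4 most abundant not called, up to 3 of each list, the 2 genes on either side of the required sum, and their parents or neighbours. Class examples were picked with their values in view. The alternatives tried were other scalings and filters, DESeq2 1.42.0, limma 3.58.1 (voom, and log2(FPKM + 1) with a pseudocount of 1), the replicate number as a block, sums of 100 or 1000, and each library left out. The exon-sharing sums and the exclusion of genes with a library at 3 counts or fewer beside 100 or more were added after the values were seen. Intervals cover counting error only. The parent of 1 copy is not reported here.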

Additional observations from a re-analysis of the deposited data

How the results depend on the processing

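The counts of 30 higher and 24 lower genes stayed within 1.5 times under every alternative except the required sum of 1000, which left 57 genes tested, 15 higher and 15 lower, with 17 and 14 separated. Other scalings gave 27 to 31 higher and 24 to 29 lower, the other filters 31 to 32 and 22 to 27, the DESeq2 Wald test 28 and 19, limma-voom 31 and 25, and log2(FPKM + 1) 26 and 25. Leaving out each library in turn gave 25 to 31 higher and 20 to 26 lower. Summing readthrough genes with the genes whose exons they share moved their counts from 8 higher and 7 lower to 21 and 12. The replicate numbers do not pair the samples (correlations of deviations from -0.036 to 0.020 over same- and differently-numbered libraries), and the replicate block gave 33 higher and 25 lower genes.

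With the exon-sharing sums 11 of the readthrough genes tested had the opposite sign. Among these only Gm49027, called lower at -2.21, had a sum called the other way, higher at 0.26. It made up 3.62% of that sum. Under the other alternatives signs turned in 3 genes that were not called. Gm10358 had log2 fold changes of -0.024 with library totals, -0.0307 with upper quartiles and -0.0229 with FPKM. Gm21988 had -0.0043 with library totals and -0.0113 with upper quartiles, and leaving out each library gave -0.0358 (without control 3) to 0.1534 (without control 1). Leaving out each library gave Gm20683 -1.3098 (without SA@BATMAN5 2) to 0.4149 (without control 3). The cause was not tested. Of the other values of named genes under an alternative, 450 kept direction and side of the threshold, 13 fell below it and 6 passed it. Genes under about 10 counts per library, such as Gm7609 in controls, are limited by depth.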
